A study of Mus musculus with 6 samples.

Results

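Fatty acid oxidation genes and targets of the peroxisome proliferator-activated receptors (PPARs) were examined in inguinal lymph nodes of mice that were given naringin. Members were found by gene symbol in the deposited table: all 30 listed symbols were present among its 50559 genes. They fall into 7 targets known to be induced by fasting (Pdk4, Angptl4, Cpt1a, Plin2, Ucp2, Acot1 and Acot2), 19 enzymes and carriers of everyday fatty acid breakdown, called housekeeping enzymes here, and 4 nuclear receptors and coactivators (Ppara, Ppard, Ppargc1a and Ppargc1b). The study compared 3 RNA sequencing libraries labelled Control with 3 labelled Naringin. Naringin, the bitter flavonoid of grapefruit, was mixed with the food at 200 mg/kg per day, and the inguinal nodes, which are embedded in subcutaneous fat, were then removed. The labels give neither strain, age nor sex of the mice, and they leave out how long naringin was fed, what the Control mice ate and whether any mice had been fasted. The labels do not say whether each library came from its own animal, so p-values measure the spread among these libraries, which may be partly technical.

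Fatty acids enter mitochondria as carnitine esters and are then shortened by a repeated cycle of oxidation, hydration, a further oxidation and thiolysis, which feeds electrons and acetyl-CoA to respiration. PPARs are nuclear receptors that bind fatty acids, pair with retinoid X receptors and switch on genes of lipid use. PPAR alpha leads this response in the fasting liver, and PPAR delta is the more widespread form. In a lymph node, fatty acid oxidation is known chiefly as a fuel route of resting lymphocytes and of macrophages.

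With naringin, the mean levels of Pdk4, Angptl4 and Cpt1a were higher than in Control, by 2.25, 2.47 and 1.49 times. Means of the housekeeping enzymes were 0.931 (Acads) to 1.25 (Acadl) times their control means. For the tested receptors and coactivators they were 0.915 to 0.943 times, with wide intervals for Ppargc1a and Ppargc1b. The median log2 fold was 0.36 over the 7 fasting-induced targets and 0.069 over the 19 housekeeping enzymes, against 0.025 over all 14873 genes tested. None of these differences passed the test across all genes. With limma on log2(CPM + 1), where CPM is the read count of a gene scaled to the same total in every library, 0 of the 29 members tested had an adjusted p under 0.05, as did 0% of all genes, and the smallest adjusted p of any gene was 0.9996. The count-based test of edgeR called 0 genes and DESeq2 called 3, with 0 members among them. At an unadjusted p under 0.05, limma had 4 members higher (Pdk4, Angptl4, Cpt1a and Acadl) and 0 lower, against a background of 0.975% of genes higher and 0.457% lower. The groups did not overlap, with naringin higher, in 3 members (Pdk4, Acot1 and Acadl), and with naringin lower in 0 members, where 3.36% and 2.29% of all genes separated in these directions. The members were listed with earlier results for some of these genes known, so these counts describe them and are no independent evidence.

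The libraries held 13074180 to 14976422 reads, so that 1 read was worth 0.0668 to 0.0765 CPM. Control 3 stood apart from the other controls: across 13932 genes its levels were lower for genes with longer exons, with a Spearman rho of -0.472 between exon length and deviation, against 0.238 and 0.373 in Control 1 and 2 and -0.011 to 0.179 in the naringin libraries. Over the 29 members tested, rho was 0.0044, 0.314 and -0.237 in Control 1, 2 and 3 and 0.042, 0.069 and -0.228 in Naringin 1, 2 and 3. These relations are across genes, which are not independent replicates, and their part in the results was not tested. Lymphocyte markers were high in every library, with the 6 T cell markers summing to 1204 to 1619 CPM and the 5 B cell markers to 2591 to 3360 CPM. The log2 fold was below 0 for 6 of the 6 T cell markers (median -0.22) and above 0 for 5 of the 5 B cell markers (median 0.14), and their part in the results was not tested. Among tissues that burn much fat, the 6 brown adipocyte markers summed to 0.469 to 0.668 CPM, with no read of Ucp1 or Elovl3. The 8 skeletal muscle markers summed to 8.64 to 12.8 CPM, mostly from Pygm at 4.69 to 8.11 CPM and Tnnt3 at 2.41 to 5.49 CPM, while Mb and Myh4 had no read. In bulk tissue, fewer cells of a type and less RNA per cell cannot be told apart.

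**Figure D1:**
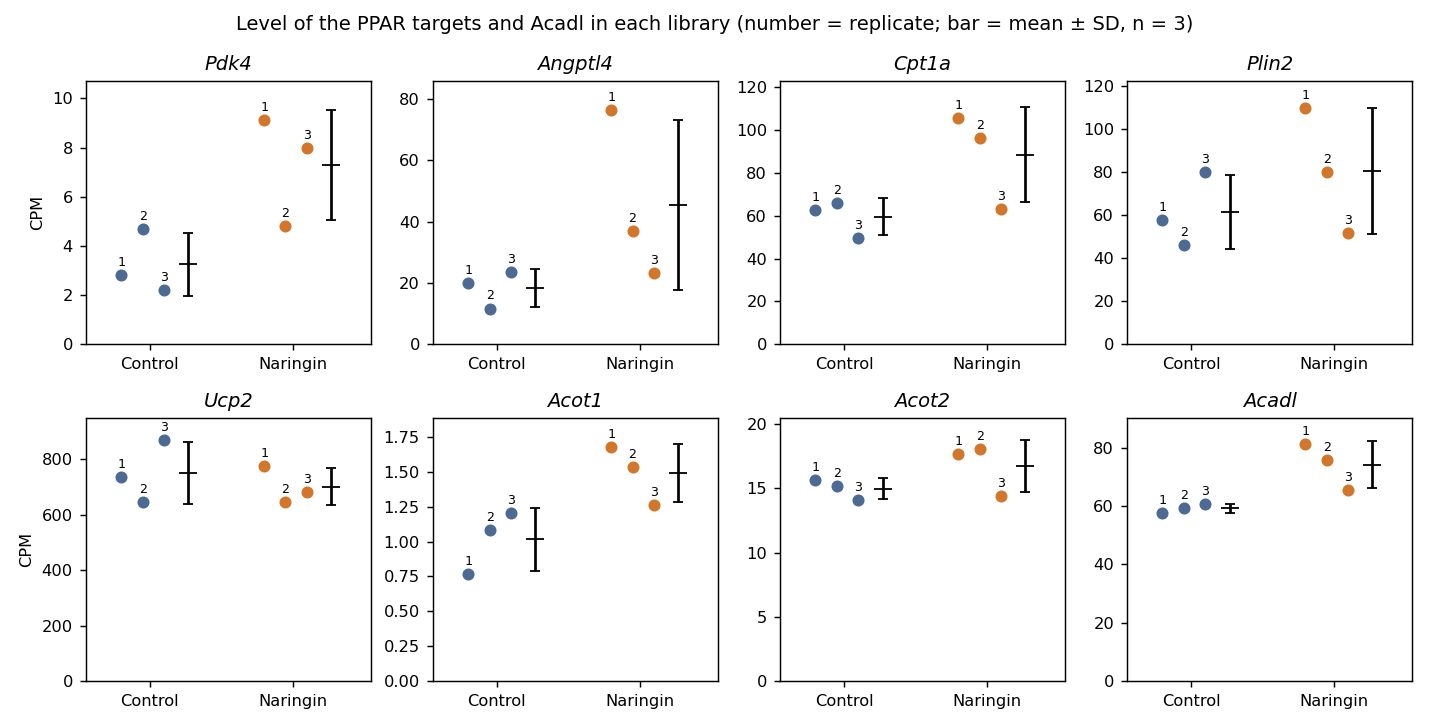
CPM of the 7 fasting-induced PPAR targets and of Acadl in each library, with the mean and SD of 3 libraries beside the points. The naringin values of Pdk4, Acot1 and Acadl lie above all control values, while the groups overlap for Angptl4, Cpt1a, Plin2, Ucp2 and Acot2.

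Pdk4 encodes pyruvate dehydrogenase kinase 4, which shuts off pyruvate oxidation and so spares glucose when fat is burned. It stood at 2.83, 4.70 and 2.21 CPM in Control 1, 2 and 3 and at 9.11, 4.81 and 7.98 CPM in Naringin 1, 2 and 3. The groups did not overlap, but the gap was narrow, since Naringin 2 exceeded Control 2 by little. The means were 3.24 ± 1.30 and 7.30 ± 2.23 CPM (SD, n = 3 each). The log2 fold was 0.97 ± 0.29 (SE), with a limma unadjusted p of 0.0101 and an adjusted p of 0.9996. Pdk4 ranked 18 of 14873 genes by p, the highest place of any member. On recovered reads, without the added 1 CPM that pulls a low gene toward 0, the edgeR log2 fold was 1.17.

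The other kinases of the pyruvate dehydrogenase complex had log2 folds near or below 0. Pdk1, the most abundant per kilobase of exon, had a log2 fold of -0.17, Pdk2 of -0.17 and Pdk3 of 0.079. Per kilobase of exon, Pdk4 made up 2.01%, 3.33% and 1.89% of the 4 kinases' summed level in Control 1, 2 and 3. It made up 7.26%, 3.71% and 6.06% in Naringin 1, 2 and 3. Pdk4 was the least abundant kinase in every library. The 13 other genes listed for this switch include the kinases, phosphatases, complex subunits and pyruvate carriers. Of these, 0 passed and 9 had a log2 fold above 0, the median being 0.040. The genes with the smallest p were Dld, the complex's dihydrolipoamide dehydrogenase, at 0.15 (limma adjusted p = 0.9996), and Pdk2.

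Angptl4 is a secreted inhibitor of lipoprotein lipase and one of the most responsive PPAR targets in many cell types. It stood at 19.9, 11.6 and 23.7 CPM in Control 1, 2 and 3 and at 76.3, 36.8 and 23.1 CPM in Naringin 1, 2 and 3. Naringin 1 was far above the rest, and Naringin 3 lay just below Control 3. The means were 18.4 ± 6.15 and 45.4 ± 27.6 CPM, a log2 fold of 1.15 ± 0.41 (SE; limma unadjusted p = 0.0236, adjusted p = 0.9996). Without Naringin 1 the log2 fold was 0.69. Lpl, which encodes the lipase that Angptl4 inhibits, had a log2 fold of -0.15, with 68.5 to 161.5 CPM in Control and 68.8 to 137.8 CPM with naringin.

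Cpt1a attaches carnitine to long-chain fatty acids at the outer mitochondrial membrane, the controlled step of their entry. It stood at 62.6, 66.1 and 49.8 CPM in Control 1, 2 and 3 and at 106, 96.5 and 63.3 CPM in Naringin 1, 2 and 3. Naringin 1 and 2 lay above every control, and Naringin 3 lay within the control range. The log2 fold was 0.54 ± 0.21 (SE; limma unadjusted p = 0.0305, adjusted p = 0.9996). It was the main form of its enzyme in these nodes, with 80.2% to 92.1% of the summed level of Cpt1a, Cpt1b and Cpt1c per kilobase of exon. The muscle form Cpt1b had at most 0.402 CPM in a library, and Cpt1c, a form of the brain, had a log2 fold of -0.27.

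Upstream sequences of Pdk4 and Cpt1a are shown because both genes had higher means with naringin and are standard PPAR targets. They come from RefSeq on build GRCm38.p6, an older build than the mm39 named in the submitters' processing notes, and cover the 250 bases before the gene's start. Capitals mark every match, on either strand, to the nuclear receptor motif AGGTCA, the GC box GGGCGG and the CCAAT box CCAAT.
Pdk4, chr6:5496279-5496528, minus strand: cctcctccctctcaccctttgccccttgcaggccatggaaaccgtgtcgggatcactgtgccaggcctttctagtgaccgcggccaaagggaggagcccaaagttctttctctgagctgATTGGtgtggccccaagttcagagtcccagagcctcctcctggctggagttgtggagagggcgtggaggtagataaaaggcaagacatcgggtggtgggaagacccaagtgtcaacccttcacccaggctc
Cpt1a, chr19:3323051-3323300, plus strand: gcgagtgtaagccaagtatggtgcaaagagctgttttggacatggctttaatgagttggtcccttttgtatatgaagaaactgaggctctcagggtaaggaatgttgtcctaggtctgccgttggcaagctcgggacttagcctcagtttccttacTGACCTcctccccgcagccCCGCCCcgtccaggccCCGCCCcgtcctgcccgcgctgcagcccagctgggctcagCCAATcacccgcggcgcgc

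In Pdk4 the only match was a CCAAT box on the minus strand, 131 to 127 bases before the start. Cpt1a held 1 AGGTCA on the minus strand, 94 to 89 bases before the start, followed by 2 GC boxes on that strand and 1 CCAAT box. The PPAR response element in its exact letters, AGGTCANAGGTCA on either strand, was in 0 of the 25 member windows found in the table. It was in 0.0335% of all 32851 windows, so 0 among 25 says little. An element that departs from these letters would be missed. The table holds no window for Angptl4, Ppargc1b, Acaa2, Decr1 or Hsd17b4. The single motif AGGTCA, which is contained in that element, was in 4 of the 25 member windows (Cpt1a, Plin2, Acadm and Acadvl), or 2 of 6 fasting-induced targets and 2 of 16 housekeeping enzymes, and in 14.0% of all windows. A match is a description of these letters and not a site of binding, and these windows are short.

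The remaining fasting-induced targets had lower log2 folds on the CPM + 1 scale. Plin2, the coat protein of lipid droplets in most cells, stood at 57.6, 46.2 and 80.0 CPM in Control 1, 2 and 3 and at 110.0, 80.2 and 51.7 CPM in Naringin 1, 2 and 3. Its groups overlapped, with Naringin 3 between Control 2 and Control 1, and its log2 fold was 0.36 ± 0.29 (SE; limma unadjusted p = 0.246). Acot1 and Acot2 encode cytosolic and mitochondrial thioesterases that release fatty acids from coenzyme A. Acot1 stood at 0.765, 1.084 and 1.20 CPM in Control 1, 2 and 3, from 10, 15 and 18 reads. With naringin it stood at 1.68, 1.54 and 1.26 CPM in Naringin 1, 2 and 3, from 25, 23 and 18 reads. The log2 fold was 0.31 ± 0.20 (SE; limma unadjusted p = 0.157). On recovered reads the edgeR log2 fold of Acot1 was 0.53 (edgeR unadjusted p = 0.162), against 0.57 for Cpt1a. At this depth the separation of Acot1 in CPM rested on a handful of reads, since Control 3 and Naringin 3 had the same number. Acot2 stood at 15.7, 15.2 and 14.1 CPM in Control 1, 2 and 3 and at 17.7, 18.1 and 14.4 CPM in Naringin 1, 2 and 3. Naringin 3 again lay among the controls, and the log2 fold was 0.14 ± 0.15 (SE; limma unadjusted p = 0.364). Acot1 and Acot2 are close paralogs whose shared reads could be counted for either, so the value of each is uncertain.

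Ucp2, a carrier of the inner mitochondrial membrane that is abundant in lymphoid tissue, was the member with the highest level, at 104 CPM per kilobase of exon over the 6 libraries. It stood at 737, 647 and 868 CPM in Control 1, 2 and 3 and at 776, 647 and 683 CPM in Naringin 1, 2 and 3. It was the only target of the 7 with a lower mean, with a log2 fold of -0.091 ± 0.15 (SE; limma unadjusted p = 0.571) and a 95% interval of -0.44 to 0.26. Because Ucp2 makes up most of the targets' summed CPM, that sum says little about the others: it was 792 to 1039 CPM in Control and 844 to 1096 CPM with naringin.

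**Figure D2:**
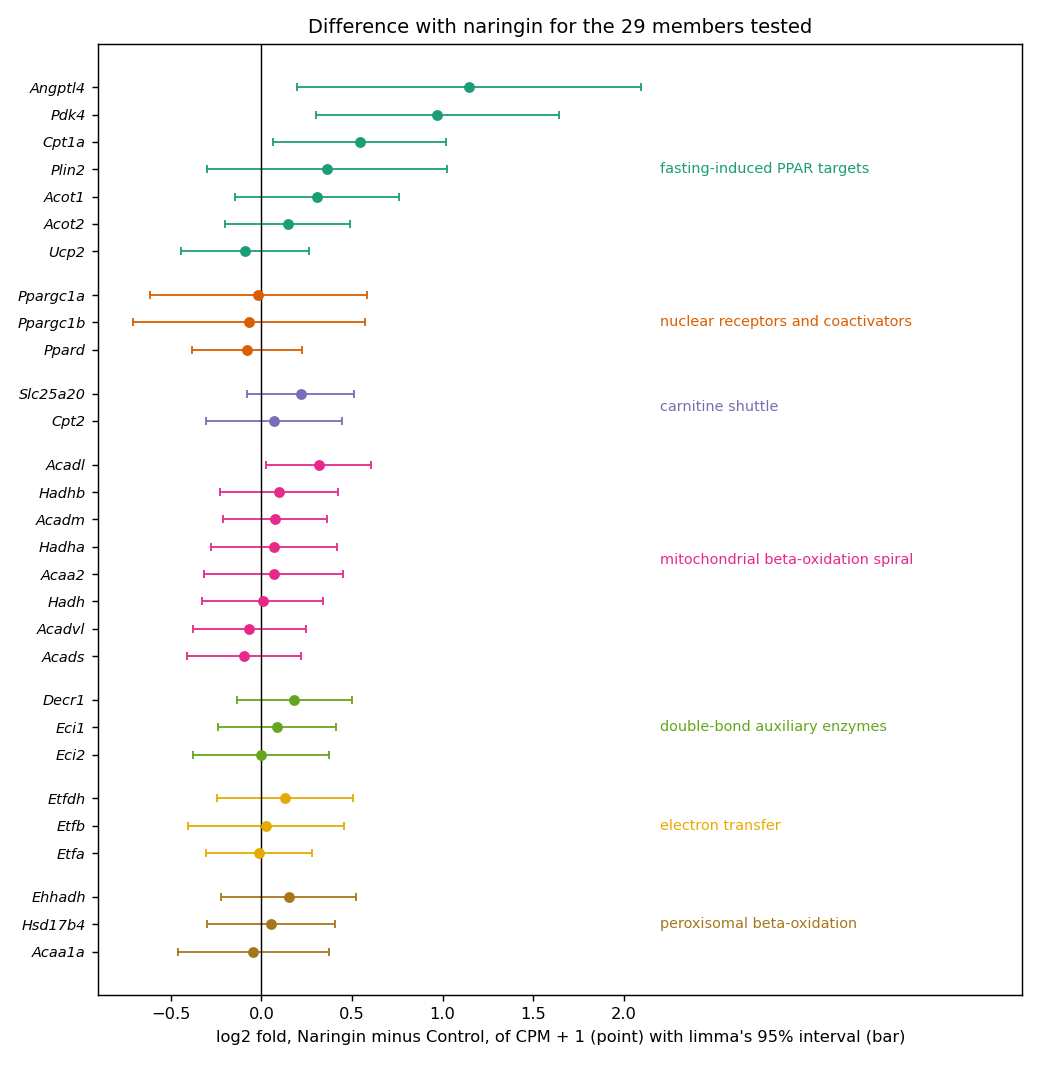
Log2 fold (Naringin minus Control, on the CPM + 1 scale) of the 29 members tested, with limma's 95% interval, ordered by role. The intervals of Angptl4, Pdk4, Cpt1a and Acadl lie above 0 before adjustment over genes, and the other 25 include 0.

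The receptors and coactivators that drive these targets had no higher mean with naringin. Ppard, which encodes PPAR delta, stood at 37.8, 38.7 and 32.2 CPM in Control 1, 2 and 3 and at 36.7, 34.3 and 31.6 CPM in Naringin 1, 2 and 3. Its log2 fold was -0.080 ± 0.13 (SE), with a 95% interval of -0.38 to 0.22. It was the leading PPAR gene, with 68.2% to 85.8% of the summed level of Ppara, Ppard and Pparg per kilobase of exon. Ppara, which encodes PPAR alpha, was at the edge of detection, with 3, 7 and 2 reads in the controls (0.230, 0.506 and 0.134 CPM) against 2, 3 and 3 with naringin (0.134, 0.200 and 0.210 CPM). With a mean of 0.236 CPM it was the only member below the filter of 1 CPM, and a difference was not detectable at this depth. The member just above the filter was Acot1, with a mean of 1.25 CPM.

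Ppargc1a and Ppargc1b encode the PGC-1 coactivators, which raise mitochondrial and fat-burning programmes. Ppargc1a stood at 1.61, 3.25 and 1.27 CPM in Control 1, 2 and 3 and at 2.01, 1.94 and 1.75 CPM in Naringin 1, 2 and 3, so every naringin value fell inside the control range. Ppargc1b stood at 13.2, 14.2 and 6.68 CPM in Control 1, 2 and 3 and at 12.7, 9.35 and 9.11 CPM in Naringin 1, 2 and 3. Its lowest value was in Control 3, and its log2 fold of -0.069 was -0.38 without that library. The log2 fold of Ppargc1a was -0.016 ± 0.26 and the SE for Ppargc1b was 0.28. The 95% intervals, -0.62 to 0.58 for Ppargc1a and -0.71 to 0.57 for Ppargc1b, leave room for changes in either direction.

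Of 15 receptor partners, corepressors and related regulators, 14 were tested, 0 passed, and 8 had a log2 fold above 0, the median being 0.044. Rxrg, a retinoid X receptor, had the smallest p, with a log2 fold of -0.38 (limma adjusted p = 0.9996). Pparg, the fat cell form of the receptor, stood at 3.47 to 4.51 CPM in Control and at 6.63, 2.07 and 2.03 CPM in Naringin 1, 2 and 3.

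The housekeeping enzymes lay near the all-gene median. Of the 19, 14 had a log2 fold above 0, or 73.7%, against 56.7% of all genes tested, and the folds ran from -0.095 for Acads to 0.32 for Acadl. Their summed level was 952 to 1182 CPM in Control and 999 to 1148 CPM with naringin, so the naringin range fell inside the control range. Single libraries decided the small median of this list: it was -0.0024 without Control 1, where 9 of the 19 log2 folds were above 0, 0.012 without Naringin 1, 0.14 without Control 3 and 0.15 without Naringin 3.

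Carnitine carriers and the mitochondrial cycle make up 10 of them. Slc25a20, which carries acylcarnitines across the inner membrane, stood at 27.9, 26.0 and 30.7 CPM in Control 1, 2 and 3 and at 33.4, 34.9 and 30.4 CPM in Naringin 1, 2 and 3. Naringin 3 lay just under Control 3, and the log2 fold was 0.22 ± 0.13 (SE; limma adjusted p = 0.9996). Cpt2, which removes the carnitine again inside, had a log2 fold of 0.071. Acadl, the long-chain acyl-CoA dehydrogenase, stood at 57.6, 59.3 and 60.5 CPM in Control 1, 2 and 3 and at 81.3, 75.8 and 65.3 CPM in Naringin 1, 2 and 3. The controls were close together, every naringin value lay above them, and the log2 fold was 0.32 ± 0.13 (SE; limma unadjusted p = 0.036, adjusted p = 0.9996).

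The dehydrogenases for other chain lengths had log2 folds closer to 0. Acadvl, for very long chains, stood at 79.5, 79.5 and 102 CPM in Control 1, 2 and 3 and at 84.7, 79.1 and 83.3 CPM in Naringin 1, 2 and 3. Acads, for short chains, stood at 28.2, 24.3 and 30.2 CPM in Control 1, 2 and 3 and at 25.0, 24.4 and 27.6 CPM in Naringin 1, 2 and 3. In both, Control 3 was the highest library and the groups overlapped. The log2 folds were -0.067 for Acadvl, -0.095 for Acads and 0.077 for Acadm, the medium-chain enzyme. Hadh, the short-chain hydroxyacyl-CoA dehydrogenase, and Acaa2, the thiolase, had log2 folds of 0.0070 and 0.067. The difference between Acadl and its relatives was not itself tested.

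Hadha and Hadhb encode the alpha and beta subunits of the mitochondrial trifunctional protein, which carries out the last steps for long chains. They are transcribed away from each other from starts 272 bases apart on chromosome 5 of GRCm38.p6. The stretch before Hadhb is shown because it lies whole between these starts, beside that of Acadl, the housekeeping enzyme with the highest log2 fold. The capitals mark the same motifs as for Pdk4 and Cpt1a.
Hadhb, chr5:30155003-30155252, plus strand: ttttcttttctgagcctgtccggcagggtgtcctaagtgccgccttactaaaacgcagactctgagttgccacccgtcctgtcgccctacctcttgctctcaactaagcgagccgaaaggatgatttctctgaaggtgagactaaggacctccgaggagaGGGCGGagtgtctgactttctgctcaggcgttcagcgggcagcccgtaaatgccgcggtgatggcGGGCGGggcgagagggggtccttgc
Acadl, chr1:66863310-66863559, minus strand: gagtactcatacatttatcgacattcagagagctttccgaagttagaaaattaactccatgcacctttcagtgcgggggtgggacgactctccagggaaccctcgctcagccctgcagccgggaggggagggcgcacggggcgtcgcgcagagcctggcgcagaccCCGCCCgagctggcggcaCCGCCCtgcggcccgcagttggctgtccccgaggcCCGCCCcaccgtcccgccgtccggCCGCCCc

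Acadl held 4 GC boxes, all on the minus strand and within 84 bases of the start, and Hadhb held 2. A GC box, GGGCGG on either strand, was in 11 of the 16 housekeeping windows and 3 of the 6 windows of fasting-induced targets, against 32.7% of all windows. A CCAAT box was in 7 of 16 and 5 of 6, against 33.8%, and the TATA box TATAAA was in 0 of the 25 member windows, against 12.4%. The median number of CG pairs in a window was 12 for the housekeeping enzymes, 6 for the fasting-induced targets and 6 over all windows. All 32851 windows cover 27025 gene symbols, so they include genes below the filter and some symbols with more than 1 window. The members were not compared with windows of expressed genes alone. Hadha stood at 147, 165 and 198 CPM in Control 1, 2 and 3 and at 192, 182 and 158 CPM in Naringin 1, 2 and 3. Hadhb stood at 74.0, 88.0 and 88.3 CPM in Control 1, 2 and 3 and at 93.0, 98.1 and 77.4 CPM in Naringin 1, 2 and 3. The ratio of Hadhb to Hadha in CPM held between 0.446 in Control 3 and 0.538 in Naringin 2, with the groups overlapping, and the log2 folds of 0.069 and 0.098 were alike in size.

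The other housekeeping enzymes handle double bonds, electrons and the peroxisome. Of the auxiliary enzymes for unsaturated fatty acids, Decr1 had a log2 fold of 0.18, Eci1 of 0.087 and Eci2 of -0.0038. The electron transfer flavoprotein, which takes electrons from the acyl-CoA dehydrogenases, had folds of -0.012 for its subunit Etfa and 0.026 for Etfb, and its oxidoreductase Etfdh had 0.13. Among the peroxisomal enzymes, the thiolase Acaa1a stood at -0.043, the bifunctional enzyme Ehhadh at 0.15 and Hsd17b4 at 0.051. All 9 had overlapping groups and 95% intervals that included 0, the widest reaching from -0.40 to 0.45 for Etfb. Reads shared between Acaa1a and its near copy Acaa1b cannot be assigned with certainty. Acaa1b itself had at most 0.940 CPM in a library.

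Per kilobase of exon, the order of levels over the 6 libraries placed Ucp2 first, then Etfb at 46.4 CPM per kilobase, Acaa2 at 39.9 and Acadl at 33.2. The ranges of Etfb, Acaa2 and Acadl over the libraries overlapped, so their order is not fixed. Plin2 stood at 20.2, Cpt1a at 9.68, Angptl4 at 9.01 and Pdk4 at 1.502. Ppara was the lowest member, at 0.061. Of the fasting-induced targets with higher means, Plin2 ranked 8, Cpt1a 15, Angptl4 16, Acot2 20, Pdk4 27 and Acot1 28 among the 30 members. The housekeeping enzymes ran from rank 2 for Etfb to rank 25 for Ehhadh. Only Pdk4 and Acot1 of these targets thus lay below all of the housekeeping enzymes.

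**Figure D3:**
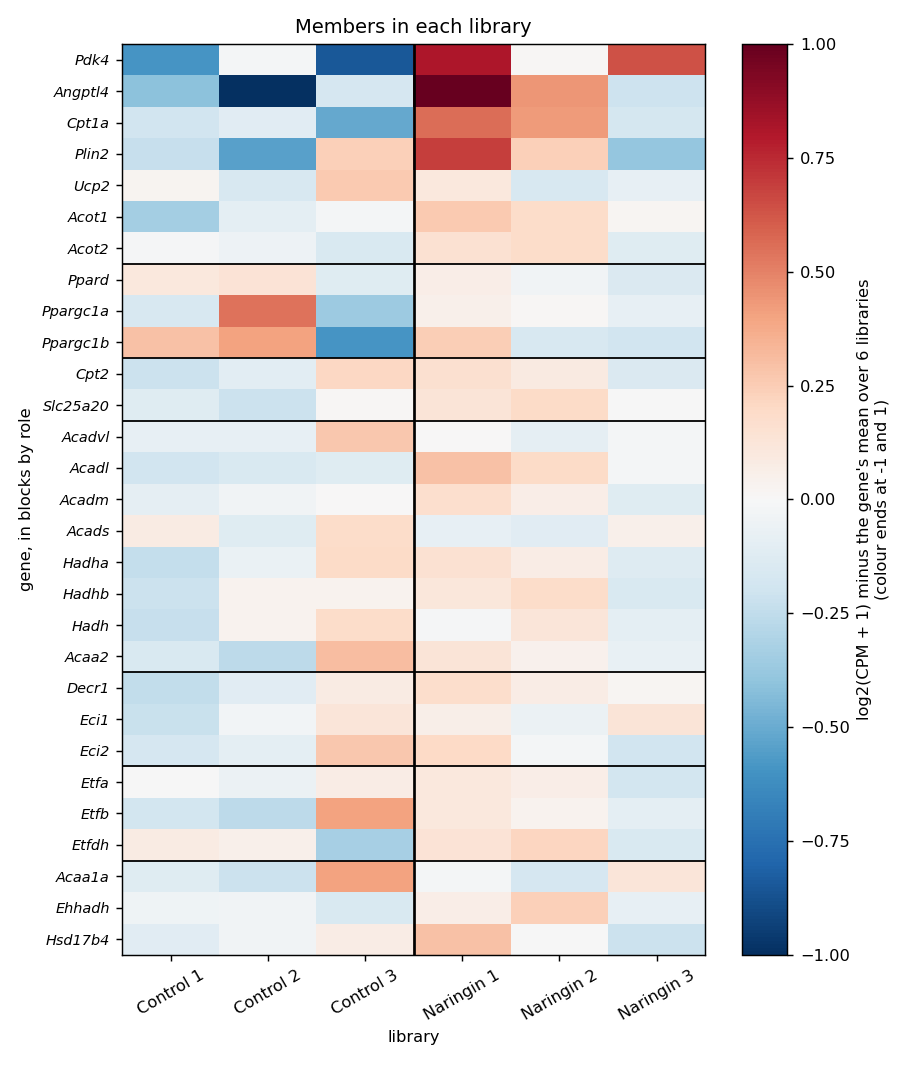
Deviation of each tested member from its own mean over the 6 libraries, in log2(CPM + 1), with libraries as columns and genes as rows in blocks by role. Naringin 1 is high and Naringin 3 low for most targets, and Control 3 is high for most housekeeping enzymes while low for Cpt1a, Pdk4 and Ppargc1b.

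The members did not vary alike between libraries. Within the naringin group, Naringin 1 held the highest value in 6 of the 7 fasting-induced targets and Naringin 3 the lowest in 5 of them. Among the housekeeping enzymes Naringin 3 was the lowest naringin library in 15 of 19. Within the controls, Control 3 was the highest in 17 of the 19 housekeeping enzymes, while it was the lowest in 3 of the 7 targets, Pdk4, Cpt1a and Acot2, and in all 4 receptors and coactivators.

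Each library's median deviation shows the same for the lists. For the fasting-induced targets it was -0.23, -0.11 and -0.15 in Control 1, 2 and 3 and 0.56, 0.19 and -0.12 in Naringin 1, 2 and 3, in log2 units. For the housekeeping enzymes it was -0.15, -0.083 and 0.12 in Control 1, 2 and 3 and 0.13, 0.070 and -0.097 in Naringin 1, 2 and 3. The targets minus the housekeeping enzymes gave -0.081, -0.029 and -0.28 in Control 1, 2 and 3 and 0.43, 0.12 and -0.025 in Naringin 1, 2 and 3. Naringin 3 lay barely above Control 2 in this difference, and within the controls in both lists.

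**Figure D4:**
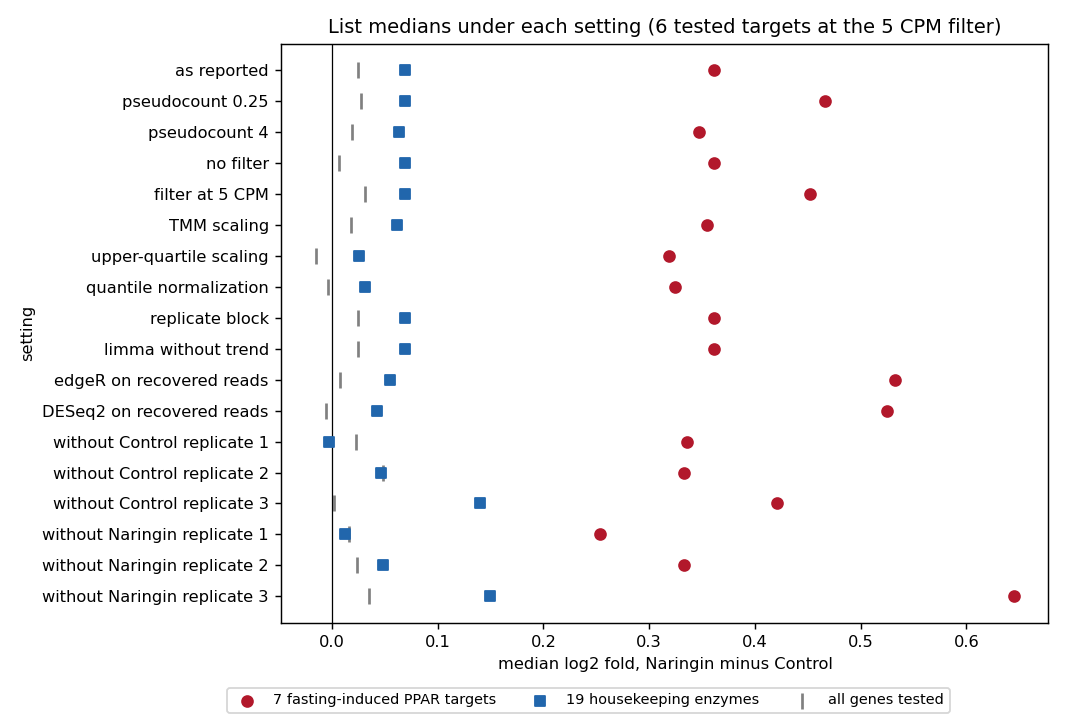
Median log2 fold of the fasting-induced targets, of the housekeeping enzymes and of all genes tested, on the x axis, under each setting on the y axis. The median of the targets runs from 0.25 without Naringin 1 to 0.64 without Naringin 3 and lies above that of the housekeeping enzymes in every setting.

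The gap between the medians of the 2 lists was 0.29 with all libraries by limma, and 0.48 by both edgeR and DESeq2 on recovered reads. The targets' median is the fold of the middle gene of the 7. That gene was Plin2 by limma (0.36) and the low-count Acot1 by edgeR (0.53) and DESeq2 (0.52). The gap was 0.24 without Naringin 1 and 0.50 without Naringin 3, the widest movement when 1 library was left out. No p is given for it, since it is a score over chosen members. Single targets moved too: without Naringin 3 the log2 fold of Plin2 was 0.64, and without Naringin 1 it was 0.11. The fold of Cpt1a was 0.40 without Naringin 1 and that of Angptl4 1.53 without Naringin 3, while Pdk4 ran from 0.79 without Control 3 to 1.21 without Naringin 2.

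**Figure D5:**
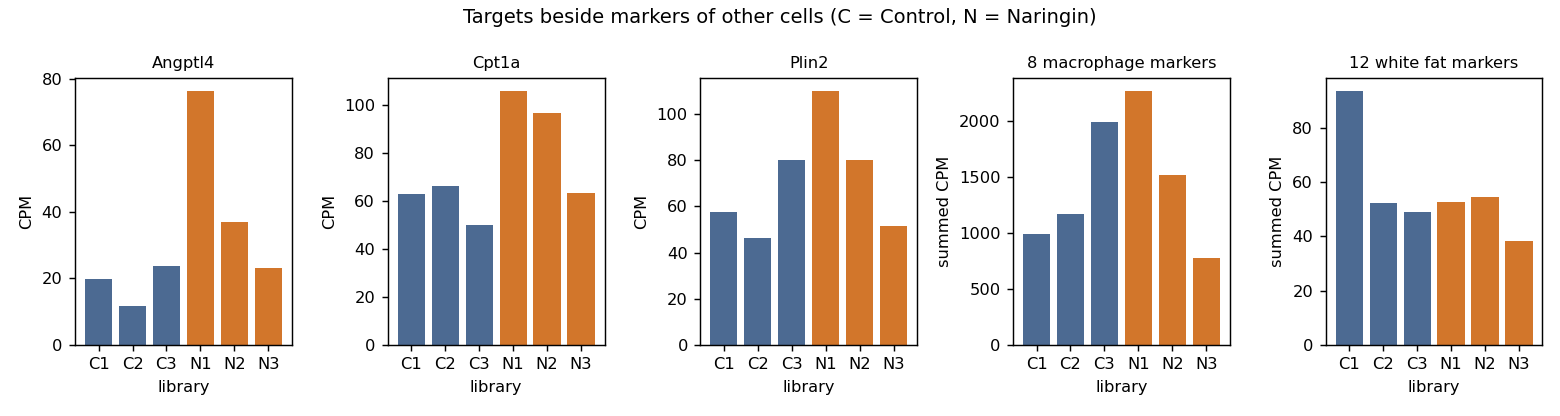
CPM of Angptl4, Cpt1a and Plin2 beside the summed CPM of 8 macrophage markers and 12 white fat markers, as bars for each library. In the naringin group the 3 targets and the macrophage sum are highest in Naringin 1 and lowest in Naringin 3, and the white fat sum is highest in Control 1.

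Markers of other cells that express these targets moved between libraries as well. All 8 macrophage markers were detected, and their sum was 993, 1171 and 1999 CPM in Control 1, 2 and 3 and 2272, 1517 and 781 CPM in Naringin 1, 2 and 3. In the naringin group this is the order of Angptl4, Cpt1a and Plin2, and in the controls Angptl4 and Plin2 were also highest in Control 3, where Cpt1a was lowest. Of the 7 macrophage markers tested, 3 had a log2 fold above 0 and 4 below, with a median of -0.027. Other sums had the same order within the naringin group, with smaller differences between libraries. The 7 blood endothelium markers summed to 737, 609 and 535 CPM in Naringin 1, 2 and 3. In Control 1, 2 and 3 they summed to 503, 704 and 611 CPM. The housekeeping enzymes summed to 1148, 1091 and 999 CPM in Naringin 1, 2 and 3. The part of macrophages or endothelium in the targets' values was not tested. The 12 white fat markers, of which Plin1, Cidec and Lipe also stand in the list of droplet genes, summed to 93.6, 52.3 and 48.9 CPM in Control 1, 2 and 3 and to 52.7, 54.6 and 38.2 CPM in Naringin 1, 2 and 3. The fat cell hormone Adipoq stood at 4.05, 2.17 and 1.604 CPM in Control 1, 2 and 3 and at 2.08, 2.47 and 0.770 CPM in Naringin 1, 2 and 3. The white fat sum was highest in Control 1, and 7 of the 8 markers tested had a lower mean with naringin. Lipe, the other one, stood at 25.2, 23.4 and 29.5 CPM in Control 1, 2 and 3. In Naringin 1, 2 and 3 it stood at 26.3, 27.2 and 29.1 CPM. Because Lipe made up much of the lower sums, they understate how far the other markers differed between libraries. The part of fat cells in the targets' values was not tested.

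Other genes of lipid use gave few differences. Over 7 lists with 96 genes in all, 83 were tested and 0 passed, and 53 had a log2 fold above 0, with a median of 0.037. For uptake and activation of fatty acids, 11 of 13 genes were tested and the median was 0.026, with Fabp4, a fatty acid carrier of fat cells and macrophages, at -0.29 and Slc27a4, a fatty acid transport protein, at 0.094 having the smallest p. For lipid droplets and lipolysis, the median of 9 genes was -0.052, with Mgll, which splits monoglycerides, at 0.35 and the droplet protein Plin4 at -0.37. For further carnitine and beta-oxidation enzymes, the median of 19 genes was 0.034, with Crot, the peroxisomal carnitine transferase, at 0.24 and Cpt1c having the smallest p.

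Of 8 genes listed for ketone body synthesis and liver targets of PPAR alpha, 4 were tested and 0 passed, with a median log2 fold of 0.059. The fatty acid hydroxylases Cyp4a10 and Cyp4a14 had no read in any library, which allows up to 3 reads or 0.200 to 0.229 CPM in a library, and the fasting hormone Fgf21 had 1 read, in Naringin 1. Bdh1, which interconverts ketone bodies, was expressed, with a log2 fold of -0.21 (limma adjusted p = 0.9996).

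Fasting also acts through glucocorticoids and FOXO factors, which are known to induce Pdk4 and Angptl4. Of 14 genes listed for FOXO factors and energy sensing, 13 were tested, 0 passed and 9 had a higher mean, the median log2 fold being 0.086. Those with the smallest p were the transcription factors Cebpb, at 21.6, 16.7 and 25.3 CPM in Control 1, 2 and 3 and 45.1, 29.6 and 31.0 CPM in Naringin 1, 2 and 3, and Cebpd, with log2 folds of 0.70 and 0.72 (limma adjusted p = 0.9996 for both). Foxo1 and Foxo3 were at -0.028 and 0.085, and Txnip, a fasting-responsive brake on glucose uptake, at 0.11. Of 11 glucocorticoid response genes, 9 had a log2 fold above 0, against 56.7% of all genes tested, with a median of 0.18. Ddit4 and Tsc22d3 were at 0.78 and 0.80, while the target Per1 was at -0.096. The summed level of the 11 was 494, 607 and 744 CPM in Control 1, 2 and 3 and 794, 880 and 888 CPM in Naringin 1, 2 and 3. These sums did not overlap between the groups, whereas Angptl4, Cpt1a and Plin2 did. Tsc22d3 and Ddit4 made up much of the sums. Tsc22d3 stood at 125.1 to 275.0 CPM in Control and 286.5 to 352.1 CPM with naringin. Ddit4 stood at 92.1 to 147.2 CPM in Control and 164.8 to 213.6 CPM with naringin. Of the 11 genes, 3 (Tsc22d3, Fkbp5 and Ddit4) did not overlap between the groups, with naringin higher, against 3.36% of all genes. The part of the 11 genes in the level of Pdk4 was not tested.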

How the data were processed

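Per the submitters' processing notes, the authors used Trimmomatic 0.39, STAR 2.7.9a, Subread 1.6.0 with featureCounts, edgeR 3.40.0 and build mm39. For the annotation and the strand of counting, the sources used here name none. The deposited values are CPM, and each of the 6 columns was scaled to the same total. Columns were matched to libraries by the number that opens each title. Whole reads were recovered: 100% of the values above 0 were whole multiples of 1 read within 0.01 of a read. The edgeR test on them called 0 genes.

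The main test was limma 3.58.1 in R 4.3.3 on log2(CPM + 1), with trend and robust moderation, 2-sided, adjusted by Benjamini-Hochberg over the 14873 genes whose mean reached 1 CPM; the threshold was 0.05. Log2 folds on that scale come out too small for low genes. SE and 95% intervals are limma's. The alternatives were edgeR 4.0.16 and DESeq2 1.42.0 on recovered reads, other pseudocounts, scalings and filters, a fit with a replicate block, a fit without trend, and leaving out each library. The fits were tested on simulated data. Between any 2 libraries, chi-square divided by its degrees of freedom was 7.68 to 61.6, so no library was another's copy.

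Members and lists were chosen with earlier results of these data known. All 30 members are accounted for; the 2 genes with the smallest p of each pathway list are named, except for some that are not reported here, and others beside them were chosen after their values were seen. Exon lengths are the union of the exons in GENCODE M21, matched by symbol for 93.7% of the genes tested, and serve only for levels per kilobase and the length relation. Upstream windows are from RefSeq (GRCm38.p6), with 25 of 30 members matched. Protein sequences were not used here.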

Additional observations from a re-analysis of the deposited data

How the results depend on the processing

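With 17 alternatives, members called stayed at 0 of 29 tested. Genes called overall were 3 by DESeq2 and 0 to 1 when a library was left out, the 1 being without Control 3. At an unadjusted limma p under 0.05, 398 genes were higher and 993 lower without Control 3, against 145 and 68 with all libraries. Without Naringin 3 they were 400 and 113. Leaving out any other library gave 46 to 185 higher and 26 to 73 lower. The limma adjusted p without Control 3 was 0.426 for Acadl and 0.474 for Pdk4, against 0.9996 for both with all libraries. These adjusted p-values thus depended on Control 3, but neither gene passed. The gap between the medians of targets and housekeeping enzymes was 0.48 by DESeq2, and 0.24 to 0.50 when a library was left out; the targets' median was then 0.25 to 0.64 and the housekeeping median -0.0024 to 0.15. The targets' median is the fold of their middle gene, which was Plin2 by limma with all libraries and Acot1 by DESeq2. That gene was Acot1 (0.25) without Naringin 1 and Plin2 (0.64) without Naringin 3. Why the folds of single genes moved was not tested. Of 491 log2 folds of members under alternatives, 457 kept their sign and their side of the threshold and 34 changed sign, 25 of them with a library left out. With all libraries, Hadh turned to -0.035 under upper-quartile scaling, -0.045 under quantile normalization, -0.012 by edgeR and -0.023 by DESeq2, Etfb to -0.017, -0.028, -0.022 and -0.033 in the same order, and Ppargc1a to 0.000325 with a pseudocount of 0.25. The members that changed sign with a library left out ranged from -0.16 to 0.15 (Acaa1a), -0.046 to 0.24 (Acaa2), -0.13 to 0.050 (Acadvl), -0.018 to 0.19 (Cpt2), -0.0024 to 0.17 (Eci1), -0.10 to 0.13 (Eci2), -0.066 to 0.078 (Etfa), -0.099 to 0.24 (Etfb), -0.0017 to 0.24 (Etfdh), -0.11 to 0.10 (Hadh), -0.031 to 0.18 (Hadha), -0.084 to 0.17 (Hsd17b4), -0.20 to 0.25 (Ppargc1a), -0.38 to 0.11 (Ppargc1b) and -0.19 to 0.019 (Ucp2).

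No pairing by replicate number was seen: deviations of same-numbered libraries correlated at -0.257, -0.019 and -0.269. Those of differently numbered libraries correlated at -0.129 to 0.305. With 3 libraries in a group, these values cannot decide whether libraries were handled in pairs. With a replicate block, 0 members and 0 genes were called, and the gap between the medians was 0.29. Depth limits Ppara, Acot1 and Ppargc1a, with at most 7, 25 and 45 reads in a library. Pdk4 was also low in the controls, with 33 to 65 reads.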
